A study of Mus musculus with 8 samples.

Results

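The genes described here are 10 components of the system that senses and relieves protein folding stress in the endoplasmic reticulum (ER). They were taken by name from a list of sensors, their transcription factors and ER chaperones. The rule itself uses no measured value, but the list was drawn up with earlier results of these data known. *Ern1*, *Xbp1*, *Atf6* and *Eif2ak3* encode the sensors and one of the factors they control, *Hspa5*, *Hsp90b1*, *Pdia4*, *Dnajb9* and *Sdf2l1* encode chaperones and folding enzymes of the ER lumen, and *Herpud1* encodes a membrane protein of ER-associated degradation. All 10 symbols were matched to an Entrez identifier in the count table, and all 10 passed the expression filter, out of 27179 genes in the table and 17700 genes tested.

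RNA was sequenced from early large pre-B (early LPre-B) and small pre-B (sPre-B) cells of mouse bone marrow, with 2 libraries in each of 4 groups. Every mouse was *Upf1* Flox/Flox and *Igh* B1-8hi/+, an allele that supplies a rearranged heavy chain. Ctrl mice were Mb1 +/+ and cKO mice Mb1 Cre/+, so that Cre expressed from the *Cd79a* (Mb1) locus deletes exons 4 to 6 of *Upf1*, which encodes an RNA helicase of nonsense-mediated mRNA decay, in B-lineage cells. The study's methods give mice of both sexes at 8 to 16 weeks, and describe replicates as biologically independent. The labels do not tie a library to an animal, so whether the early and sPre-B libraries of one number came from the same mouse is not given. The P values measure the spread between these libraries. Both cell types were sorted as lineage-negative B220+ cells without surface IgM, early LPre-B cells as large CD43+ CD2- cells and sPre-B cells as small CD25+ CD2+ cells.

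The ER folds membrane and secreted proteins, and in B-lineage cells these include the immunoglobulin chains of the pre-B cell receptor and, later, of antibodies. Unfolded protein is sensed by IRE1 (encoded by *Ern1*), PERK (*Eif2ak3*) and ATF6. IRE1 cuts an intron out of *Xbp1* mRNA in the cytoplasm so that an active transcription factor is made, ATF6 is cleaved in the Golgi to release its own transcription factor domain, and PERK phosphorylates the initiation factor eIF2α, which lowers translation in general and raises translation of ATF4. ATF6 and XBP1 then raise transcription of chaperone and degradation genes through ER stress response elements in their promoters. Gene-level counts measure the RNA of these components. They do not separate spliced from unspliced *Xbp1*, and they do not measure cleavage of ATF6 or phosphorylation of PERK.

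The sequences on which these pathways act are shown because they are the sites at which the sensors are known to act on these genes, and a count per gene does not read them. The cytoplasmic intron of *Xbp1* was found in the GENCODE M21 transcripts (GRCm38, mm10) as 26 bases bounded by 2 matches to CNGCAG, each taken as cut after its first G. Capitals mark the excised bases, which lie at chr11:5524279-5524304 on the plus strand, in exon 4 of transcript Xbp1-201 and within its coding sequence.
Xbp1: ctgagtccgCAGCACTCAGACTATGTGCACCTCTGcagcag
The site was present in all 3 coding transcripts of *Xbp1*, and its removal shifts the reading frame because 26 bases are 2 more than a whole number of codons.

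The 250 bases before each RefSeq gene start (GRCm38.p6) were searched on both strands for 3 elements of the unfolded protein response. These were ERSE (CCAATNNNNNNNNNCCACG), ERSE-II (ATTGGNCCACG) and UPRE (TGACGTGG). The table of starts held 9 of the 10 genes, *Atf6* not among them. Of all 32851 starts, 0.113% held an ERSE, 0.0304% an ERSE-II and 0.563% a UPRE. Among the 9 genes, 2 held an ERSE, 1 an ERSE-II and 0 a UPRE. Each match is shown with its flanks, 29 bases in the direction of the gene, with the match in capitals.
Hspa5 ERSE, bases -65 to -47, chr2:34772020-34772048 (+): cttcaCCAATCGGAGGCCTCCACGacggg
Hsp90b1 ERSE, bases -212 to -194, chr10:86705633-86705661 (-): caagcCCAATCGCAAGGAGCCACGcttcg
Hsp90b1 ERSE read on the opposite strand, bases -107 to -89, chr10:86705528-86705556 (-): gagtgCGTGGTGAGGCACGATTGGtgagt
Herpud1 ERSE-II, bases -52 to -42, chr8:94386368-94386396 (+): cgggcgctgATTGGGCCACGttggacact
No match was found before *Ern1*, *Xbp1*, *Eif2ak3*, *Pdia4*, *Dnajb9* or *Sdf2l1*. A match describes the letters in the window and not a bound site, and the absence of a match says nothing about other or altered elements.

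In mm10 (GENCODE M21), *Eif2ak3* lies on chr6:70844515-70905245, *Ern1* on chr11:106394650-106487852, *Xbp1* on chr11:5520659-5525893, *Atf6* on chr1:170704674-170867771, *Hspa5* on chr2:34771970-34777547 and *Hsp90b1* on chr10:86690209-86705509. *Pdia4* lies on chr6:47796141-47813430, *Dnajb9* on chr12:44205559-44210326, *Herpud1* on chr8:94386438-94395377 and *Sdf2l1* on chr16:17130138-17132383.

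Library totals lay between 68516857 and 160426338 counts. A level of 3 counts, taken as the smallest that can be shown and covering counting error only, corresponded to 0.0217 to 0.0426 CPM, the unit of counts relative to library size after TMM scaling, and every member lay above it in every library. *Upf1* itself lay between 186 and 237 CPM in the 4 Ctrl libraries and between 244 and 293 CPM in the 4 libraries labelled cKO. The gene-level count also covers the exons outside the deleted part and so does not check the label. *Cd79a*, the locus that carries Cre in cKO mice, measured 640 and 543 CPM in Ctrl and 188 and 160 CPM in cKO early LPre-B cells, and 1478 and 1602 CPM against 405 and 325 CPM in sPre-B cells, which separates the libraries as they are labelled. Both Ctrl replicate 2 libraries had at most 304 counts of *Xist* and at least 19733 counts of 4 Y-linked genes, whereas the other 6 had at least 290740 and at most 34, so sex differed within the Ctrl groups and not within the cKO groups, and the 2 libraries of each Ctrl group were from different mice. The 12 B-lineage markers, *Cd79a* among them, summed to 5626 to 6146 CPM in Ctrl and 4079 to 4118 CPM in cKO early LPre-B cells, and to 10056 to 10199 CPM and 6503 to 6727 CPM in sPre-B cells, lower in cKO at both stages. Their part in the members' values was not tested. The 10 plasma cell markers summed to between 666 and 1748 CPM and are described with the members' values at the end. The 8 T and NK cell markers summed to at most 4.76 CPM, 6 erythroid and megakaryocyte markers to at most 31.6 CPM, and 4 markers of plasmacytoid dendritic cells, mostly *Tcf4*, which B-lineage cells express, to at most 234 CPM.

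Compared per kilobase of annotated exon, the members differed in level by a wide range within Ctrl early LPre-B cells. *Herpud1* (136 ± 2.16 CPM per kb, SD, n = 2) and *Hsp90b1* (132 ± 3.8) were the highest and differed by about the spread between libraries. *Hspa5* (64.3 ± 11.4) and *Pdia4* (51.4 ± 3.41) came next and lay within about 1 SD of each other. *Sdf2l1* (22.1 ± 4.66), *Eif2ak3* (18.4 ± 0.908), *Xbp1* (16 ± 2.76) and *Atf6* (13.8 ± 0.659) formed a middle range in which neighbours lay within their spread of each other. *Dnajb9* (6.8 ± 0.0917) and *Ern1* (1.78 ± 0.267) were the lowest, each apart from its neighbours by more than its SD. In Ctrl sPre-B cells *Herpud1* (203 ± 1.73) and *Hsp90b1* (174 ± 9.6) were again the highest, *Eif2ak3* (50.5 ± 0.367) had come level with *Pdia4* (52.9 ± 2.27), and *Sdf2l1* (5.63 ± 0.841) lay next to *Ern1* (4.27 ± 0.353) at the low end.

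**Figure D1:**
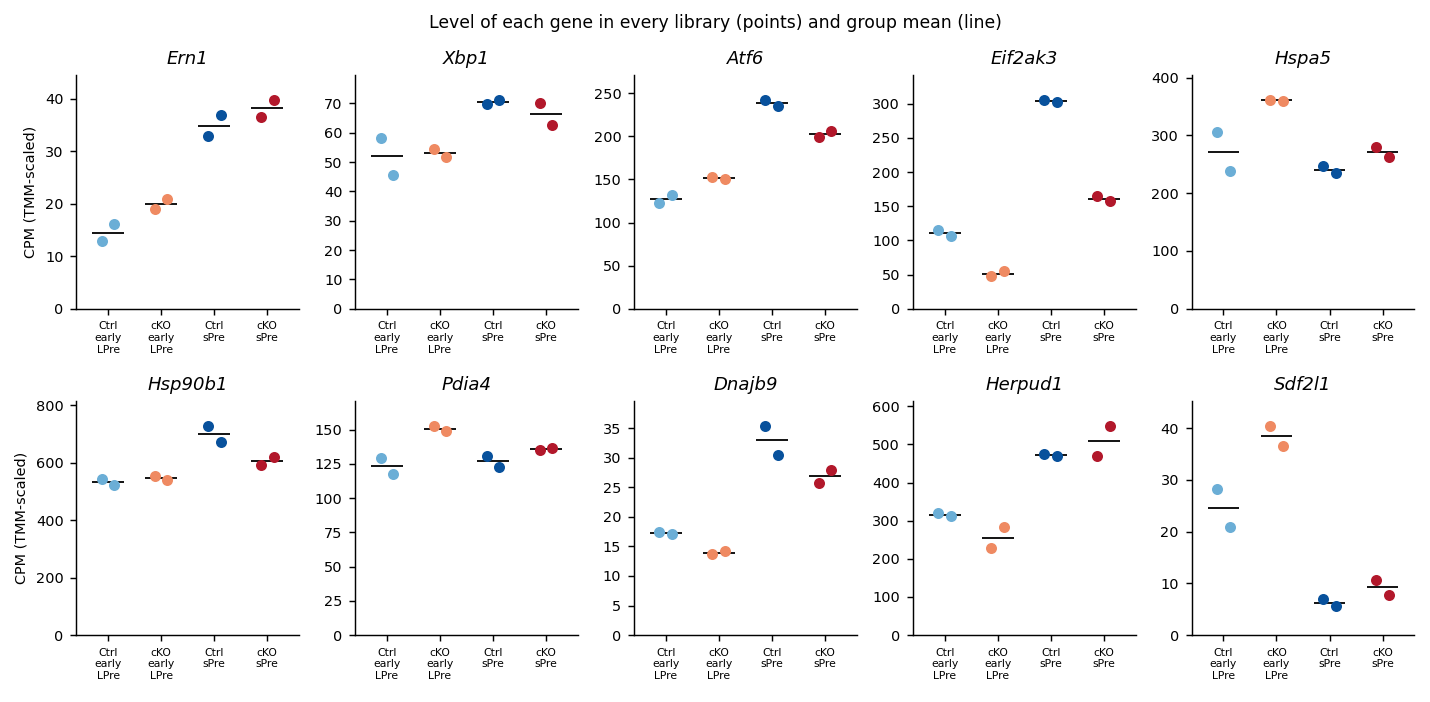
Level of the 10 genes in CPM (vertical axes from 0, scaled with TMM factors) in the 8 libraries. Points are libraries and lines the means of the 2 libraries of a group. *Eif2ak3* lies lower in cKO than in Ctrl at both stages, and *Sdf2l1* lies lower in sPre-B than in early LPre-B cells in both genotypes.

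Stage was compared first, within each genotype, to ask how the members' RNA moved from the dividing early LPre-B cell to the resting sPre-B cell. The sensor genes, *Xbp1*, *Dnajb9* and *Herpud1* were higher in sPre-B cells of both genotypes, *Sdf2l1* was lower, and the chaperones *Hspa5* and *Pdia4* stood near their early level in Ctrl cells. In Ctrl cells, 7 of 10 members rose and 1 fell, where 29.1% of all genes tested were called higher and 31.1% lower, and the members' median Log2FC was 0.51 against 0.02 over all genes. In cKO cells, 6 of 10 rose and 2 fell, where 31.6% of all genes were called higher and 31.1% lower, with a median of 0.37 against 0.05. All calls are edgeR quasi-likelihood tests at a Benjamini-Hochberg adjusted P under 0.05 over the 17700 genes, fitted on all 8 libraries. The levels are shares of the RNA of many cells, so fewer cells of a type and less RNA per cell cannot be told apart.

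*Eif2ak3*, which encodes PERK, measured 114 and 107 CPM in the Ctrl early LPre-B libraries and 306 and 303 CPM in the Ctrl sPre-B libraries. In the cKO libraries it measured 47.7 and 54.9 CPM at the early stage and 165 and 157 CPM in sPre-B cells. The 4 groups did not overlap, in the order cKO early, Ctrl early, cKO sPre-B and Ctrl sPre-B. The rise with stage was 2.75-fold in Ctrl (Log2FC 1.46, SE 0.0989, adjusted P = 5.7e-06) and 3.14-fold in cKO (Log2FC 1.65, SE 0.0996, adjusted P = 3.81e-06), the largest rise among the members in both genotypes.

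*Ern1*, which encodes the IRE1 kinase and nuclease, measured 13.0 and 16.1 CPM in early LPre-B cells of Ctrl mice against 32.8 and 36.9 CPM in Ctrl sPre-B cells. In cKO cells it went from 19.0 and 21.0 CPM to 36.6 and 39.8 CPM. No early library reached any sPre-B library, while the sPre-B libraries of the 2 genotypes overlapped. The rise was 2.4-fold in Ctrl (Log2FC 1.27, SE 0.135, adjusted P = 6.49e-05) and 1.91-fold in cKO (Log2FC 0.94, SE 0.134, adjusted P = 0.000341).

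*Atf6*, the sensor that is itself a transcription factor precursor, measured 123 and 132 CPM in early LPre-B cells of Ctrl mice and 243 and 235 CPM in Ctrl sPre-B cells. In cKO cells it measured 153 and 151 CPM and then 200 and 207 CPM. The cKO libraries lay inside the range set by the Ctrl libraries, above Ctrl at the early stage and below it in sPre-B cells. The rise was 1.87-fold in Ctrl (Log2FC 0.90, SE 0.0864, adjusted P = 3.38e-05) and 1.34-fold in cKO (Log2FC 0.42, SE 0.0858, adjusted P = 0.00261).

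*Xbp1*, the mRNA cut by IRE1, measured 58.4 and 45.7 CPM in early LPre-B cells of Ctrl mice and 69.7 and 71.3 CPM in Ctrl sPre-B cells. In cKO cells it measured 54.4 and 51.7 CPM and then 70.2 and 62.6 CPM. The stages did not overlap, and the 2 genotypes overlapped at both. The rise of 1.35-fold in Ctrl (Log2FC 0.44, SE 0.121, adjusted P = 0.0126) was the smallest among the sensor genes, and the rise of 1.25-fold in cKO (Log2FC 0.32, adjusted P = 0.0428) was not called by DESeq2 (adjusted P = 0.0616), with median-ratio factors (adjusted P = 0.0512) or in 6 of the 8 fits that left out 1 library (adjusted P up to 0.226).

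*Herpud1*, which brings substrates to the ER ubiquitin ligase complex, measured 320 and 313 CPM in early LPre-B cells of Ctrl mice and 476 and 470 CPM in Ctrl sPre-B cells. In cKO cells it measured 228 and 283 CPM and then 469 and 549 CPM. Its cKO libraries were lowest at the early stage and overlapped Ctrl in sPre-B cells. It rose 1.5-fold in Ctrl (Log2FC 0.58, SE 0.133, adjusted P = 0.00495) and 1.99-fold in cKO (95% interval of the Log2FC 0.69 to 1.30, adjusted P = 0.00024).

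*Dnajb9*, a co-chaperone that assists HSPA5 and binds IRE1, measured 17.5 and 17.2 CPM in early LPre-B cells of Ctrl mice and 35.4 and 30.5 CPM in Ctrl sPre-B cells. In cKO cells it measured 13.7 and 14.2 CPM and then 25.8 and 27.9 CPM. Its groups followed the same order as those of *Eif2ak3*, without overlap. The rise was 1.9-fold in Ctrl (Log2FC 0.93, SE 0.116, adjusted P = 0.000159) and 1.93-fold in cKO (Log2FC 0.95, SE 0.116, adjusted P = 0.00014).

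*Sdf2l1*, a luminal partner of HSPA5 and its co-chaperones, ran the other way. It measured 28.2 and 20.9 CPM in early LPre-B cells of Ctrl mice against 6.89 and 5.57 CPM in Ctrl sPre-B cells, and 40.4 and 36.6 CPM against 10.6 and 7.82 CPM in cKO cells. Every early library exceeded every sPre-B library. The level in sPre-B cells was 0.254 of the early level in Ctrl (Log2FC -1.98, SE 0.206, adjusted P = 5.51e-05) and 0.239 of it in cKO (Log2FC -2.06, SE 0.204, adjusted P = 4.2e-05).

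The chaperones *Hspa5*, *Hsp90b1* and *Pdia4* moved by at most 0.41 on the log2 scale with stage. *Hspa5* was called in cKO and *Hsp90b1* in Ctrl. *Hspa5*, which encodes the HSP70 chaperone BiP that holds the sensors inactive, measured 306 and 238 CPM in early LPre-B cells of Ctrl mice and 246 and 235 CPM in Ctrl sPre-B cells, where it was not called (Log2FC -0.18, adjusted P = 0.262). The Ctrl early libraries spread more than those of any other group of this gene, and without Ctrl early LPre-B replicate 1 the Log2FC became 0.07. In cKO cells *Hspa5* went from 362 and 360 CPM to 280 and 263 CPM and fell by 0.41 on the log2 scale (SE 0.127, adjusted P = 0.0201), a call lost without any single cKO library (adjusted P = 0.0547 to 0.103).

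*Hsp90b1*, which encodes the HSP90 chaperone GRP94, measured 543 and 522 CPM in early LPre-B cells of Ctrl mice and 728 and 673 CPM in Ctrl sPre-B cells, a rise of 1.31-fold (Log2FC 0.39, SE 0.113, adjusted P = 0.0145). In cKO cells it measured 554 and 541 CPM and then 592 and 621 CPM, which was not called (Log2FC 0.15, adjusted P = 0.277). *Pdia4*, a protein disulfide isomerase, measured 129 and 118 CPM and then 131 and 123 CPM in Ctrl cells, and 153 and 149 CPM and then 135 and 136 CPM in cKO cells. It was the member with the smallest difference between stages in Ctrl (Log2FC 0.04, 95% interval -0.16 to 0.24, adjusted P = 0.701), and in cKO it was not called either (Log2FC -0.15, adjusted P = 0.157).

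**Figure D2:**
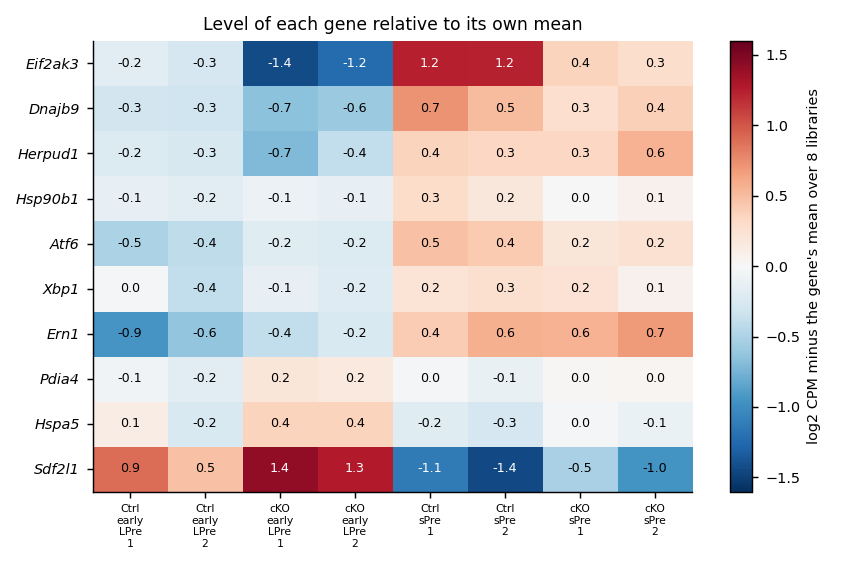
Log2 CPM of each gene minus its own mean over the 8 libraries (colour and printed value, red higher and blue lower), with genes in rows and libraries in columns. The first 7 rows are lower in early LPre-B than in sPre-B libraries, and *Sdf2l1* in the last row is the reverse.

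Across the 8 libraries the members fell into sets by the sign of their correlation in log2 CPM, which is a description since the libraries share stage and genotype. All 21 pairs among *Ern1*, *Xbp1*, *Atf6*, *Eif2ak3*, *Hsp90b1*, *Dnajb9* and *Herpud1* had a positive Pearson r (0.638 to 0.957), as did the 3 pairs among *Hspa5*, *Pdia4* and *Sdf2l1* (0.498 to 0.876). Of the 21 pairs between these sets, 1 was above 0, at 0.001, and the lowest was -0.976 between *Dnajb9* and *Sdf2l1*. The ERSE-bearing genes *Hspa5* and *Hsp90b1* lay in different sets (r = -0.546). Among 12859 genes with a mean of at least 1 CPM, the gene most like each member over the 8 libraries was *Stx7* for *Eif2ak3* (r = 0.999), *Prcp* for *Dnajb9* (r = 0.997), *Zdhhc17* for *Ern1* (r = 0.996), *Rbm24* for *Herpud1* (r = 0.993), *Mon1a* for *Atf6* (r = 0.993) and *Endou* for *Hsp90b1* (r = 0.992). Those for the remaining members were *Fdps* for *Sdf2l1* (r = 0.998), *Pes1* for *Hspa5* (r = 0.986), *Txnl4b* for *Pdia4* (r = 0.983) and *Tmub1* for *Xbp1* (r = 0.975). *Fdps* encodes an enzyme of isoprenoid synthesis and *Pes1* a factor of ribosome biogenesis.

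Genotype was then compared within each stage, to ask how the members differed between mice with and without Mb1-Cre. In early LPre-B cells labelled cKO, *Eif2ak3* was at less than its Ctrl level by more than any other member, while *Ern1*, *Hspa5*, *Pdia4* and *Sdf2l1* were modestly higher. Of 10 members 4 rose and 1 fell, where 14.5% of all genes tested were called higher and 16.9% lower, and the median Log2FC was 0.15 against -0.06 over all genes. In sPre-B cells 0 members rose and 1 fell, where 19.8% of all genes were called higher and 14.9% lower, with a median of 0.01 against 0.01. Beside the count of 0 higher, 1 member was higher at an unadjusted P under 0.05, and DESeq2 and edgeR's likelihood-ratio test each called 1 higher, *Sdf2l1*.

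**Figure D3:**
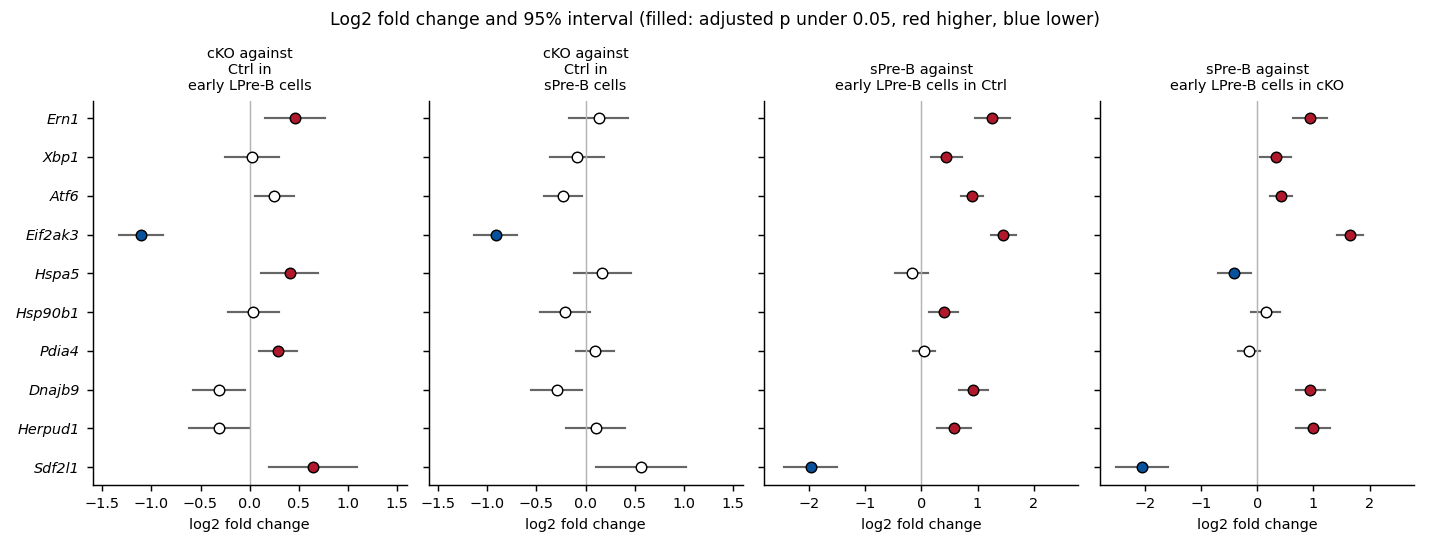
Log2 fold change of the 10 genes (points) with 95% intervals (lines) from the edgeR quasi-likelihood fit, in 4 panels for cKO against Ctrl at each stage and sPre-B against early LPre-B in each genotype. Filled points had an adjusted P under 0.05. *Eif2ak3* is the only member called lower in cKO at both stages (Log2FC -1.11 and -0.92), and the scales of the first 2 panels are narrower than those of the last 2.

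*Eif2ak3* in early LPre-B cells was at 0.464 of its Ctrl level (Log2FC -1.11, SE 0.0983, 95% interval -1.33 to -0.88, adjusted P = 0.000134). In sPre-B cells it was at 0.53 of that level (Log2FC -0.92, SE 0.0976, 95% interval -1.14 to -0.69, adjusted P = 0.00026). Both calls held under every alternative that was run, including the fits without either Ctrl replicate 2 library. The difference between these effects was not called (Log2FC 0.19, 95% interval -0.12 to 0.50, adjusted P = 0.481).

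The increases in early LPre-B cells were smaller. *Sdf2l1* was 1.57-fold higher (Log2FC 0.65, SE 0.196, adjusted P = 0.0353), *Ern1* 1.38-fold (Log2FC 0.46, SE 0.134, adjusted P = 0.0297), *Hspa5* 1.33-fold (Log2FC 0.41, SE 0.127, adjusted P = 0.0397) and *Pdia4* 1.22-fold (Log2FC 0.29, SE 0.0861, adjusted P = 0.0329). Libraries of the 2 genotypes did not overlap for any of these genes, yet all 4 calls were lost without either cKO early LPre-B library. The calls of *Hspa5* (adjusted P = 0.0969), *Pdia4* (adjusted P = 0.0807) and *Sdf2l1* (adjusted P = 0.137) were also lost without Ctrl early LPre-B replicate 2, the library that differed in sex, and that of *Ern1* without Ctrl early LPre-B replicate 1 (adjusted P = 0.089). Those of *Hspa5* and *Pdia4* were lost without either cKO sPre-B library as well (adjusted P = 0.0556 to 0.06).

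The other 5 members were not called in early LPre-B cells by edgeR's quasi-likelihood test, which called 4 higher and 1 lower. DESeq2 called 5 members higher and 1 lower there. *Atf6* missed the threshold (Log2FC 0.25, adjusted P = 0.0534), as did *Dnajb9* in the opposite direction (Log2FC -0.31, adjusted P = 0.0691), and *Herpud1* had a Log2FC of -0.31 (adjusted P = 0.11), each without overlap between genotypes. The intervals for *Xbp1* (-0.25 to 0.30) and *Hsp90b1* (-0.22 to 0.30) bound what could have been missed there.

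In sPre-B cells the 9 members other than *Eif2ak3* missed the threshold. *Sdf2l1* (Log2FC 0.56, adjusted P = 0.0601), *Atf6* (Log2FC -0.23, adjusted P = 0.0665) and *Dnajb9* (Log2FC -0.30, adjusted P = 0.0776) were nearest to it, and DESeq2 called all 3 (adjusted P = 0.0328, 0.0337 and 0.0443). *Hsp90b1* (Log2FC -0.21), *Hspa5* (0.17), *Ern1* (0.13), *Herpud1* (0.10), *Pdia4* (0.10) and *Xbp1* (-0.09) had intervals that included 0. The largest difference that these intervals allow is 0.46 on the log2 scale in either direction.

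Whether the genotype effect depended on stage was tested as an interaction. It was called for 0 of 10 members, where 2.64% of all genes were called more positive and 1.6% more negative in sPre-B cells. At an unadjusted P under 0.05 there was 1 member, *Atf6*, and DESeq2, the likelihood-ratio test and the fit with median-ratio factors each called it alone. With a block for the replicate number within genotype, *Atf6* (adjusted P = 0.0252) and *Herpud1* (adjusted P = 0.0394) were called, and with 1 block for the number across genotypes neither was (adjusted P = 0.0541 and 0.18). The Log2FC of *Atf6* between genotypes was 0.48 lower in sPre-B than in early LPre-B cells (Log2FC -0.48, SE 0.121, 95% interval -0.76 to -0.21, adjusted P = 0.062 over all genes with edgeR and 0.00731 with DESeq2). *Herpud1* (Log2FC 0.41, adjusted P = 0.255) and *Ern1* (Log2FC -0.33, adjusted P = 0.364) were the next in size. *Ern1*, *Hspa5*, *Pdia4* and *Sdf2l1* were called between genotypes at the early stage and not in sPre-B cells, but with interactions of -0.24 (adjusted P = 0.51) for *Hspa5*, -0.19 (adjusted P = 0.421) for *Pdia4* and -0.09 (adjusted P = 0.905) for *Sdf2l1* a difference between stages was not shown. The same holds for *Hsp90b1*, whose rise with stage was called in Ctrl and not in cKO (interaction Log2FC -0.25, adjusted P = 0.427).

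The members were placed among 107 further genes of ER function in 7 lists, of which 105 were tested and *Stc2* and *Scara3* did not pass the expression filter. In cKO against Ctrl, 19 of the 105 rose and 14 fell in early LPre-B cells (18.1% and 13.3%), and 19 rose and 13 fell in sPre-B cells (18.1% and 12.4%). These shares lay near the percentages over all genes given above. With stage, 35 rose and 36 fell in Ctrl cells (against 29.1% and 31.1% of all genes) and 28 rose and 41 fell in cKO cells (against 31.6% and 31.1% of all genes). The interaction was called for 0 of 105 genes, with 17 at an unadjusted P under 0.05, 5 by DESeq2 and 5 by the likelihood-ratio test.

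Genes of the PERK arm, which act at and after phosphorylation of eIF2α, had the highest median of the 7 lists in cKO cells, while the RNA of PERK itself was lower. Of 13 tested, 8 rose and 1 fell in early LPre-B cells (median Log2FC 1.51), and 8 rose and 0 fell in sPre-B cells (median 1.45). Over all genes 14.5% were called higher and 16.9% lower at the early stage (median -0.06), and 19.8% and 14.9% in sPre-B cells (median 0.01). For the count of 0 lower, 0 genes passed an unadjusted P under 0.05 and 0 were called by DESeq2. *Atf4*, the central transcription factor, and *Ddit3*, which encodes CHOP, are named after their values were seen. *Atf4* measured 134 and 118 CPM in Ctrl and 461 and 403 CPM in cKO early LPre-B cells, and 129 and 139 CPM against 355 and 380 CPM in sPre-B cells (Log2FC 1.77 and 1.45, adjusted P = 5.22e-05 and 7.41e-05). *Ddit3* measured 9.94 and 10.2 CPM against 54.0 and 54.6 CPM at the early stage, and 14.0 and 18.7 CPM against 67.5 and 68.4 CPM in sPre-B cells (Log2FC 2.43 and 2.05, adjusted P = 2.09e-05 and 3.56e-05).

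*Asns*, asparagine synthetase and an ATF4 target, rose most in the list, by 4.53 in early LPre-B and 5.03 in sPre-B cells on the log2 scale (adjusted P = 3.42e-06 and 7.08e-06). *Chac1*, a glutathione-degrading enzyme, rose by 4.29 and 4.09 (adjusted P = 6.18e-05 and 5.64e-05), and *Trib3*, a pseudokinase that restrains ATF4 and CHOP, by 1.51 and 2.86 (adjusted P = 0.0062 and 0.000351). *Vldlr*, a lipoprotein receptor, rose by 3.76 in early LPre-B cells (adjusted P = 0.00828) from 0.0796 and 0.192 CPM in Ctrl to 1.61 and 1.92 CPM. *Ppp1r15b*, a subunit of an eIF2α phosphatase, fell by 0.39 in early LPre-B cells (adjusted P = 0.0156). These targets also respond to other kinases of eIF2α, and phosphorylation was not measured in the RNA counts. The paper counts *Ddit3* among known targets of nonsense-mediated decay and among RNAs bound by phosphorylated UPF1. The part of lost decay in the values of this list was not tested.

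The chaperone list held 20 genes. Of these, 5 rose and 0 fell in cKO early LPre-B cells (median Log2FC 0.24), and 5 rose and 0 fell in cKO sPre-B cells (median 0.22), by at most 0.91 on the log2 scale. Beside the 5 of 20 higher, 14.5% of all genes were called higher at the early stage and 19.8% in sPre-B cells, and beside the 0 lower, 16.9% and 14.9% were called lower. In neither stage was a gene of the list lower at an unadjusted P under 0.05 (0 genes) or by DESeq2 (0 genes). *Cnpy3*, a chaperone of Toll-like receptors, rose at both stages (Log2FC 0.91 and 0.70, adjusted P = 0.00086 and 0.00251), as did *Serp1*, which stabilises membrane proteins (Log2FC 0.49 and 0.45, adjusted P = 0.0136 and 0.0176). *Hyou1*, a large HSP70-like chaperone, rose in early LPre-B cells (Log2FC 0.57, adjusted P = 0.00648), and *Sil1*, the nucleotide exchange factor of HSPA5, in sPre-B cells (Log2FC 0.61, adjusted P = 0.00577). Neither interaction was called (*Hyou1* adjusted P = 0.223, *Sil1* adjusted P = 0.464).

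Degradation genes moved both ways with genotype. Of 21 in the list, 4 rose and 4 fell in early LPre-B cells, and 2 rose and 3 fell in sPre-B cells. Over all genes 14.5% were called higher and 16.9% lower at the early stage and 19.8% and 14.9% in sPre-B cells, so the counts of this list lie near or below those shares. The ubiquitin-conjugating enzyme gene *Ube2g2* rose at both stages (Log2FC 1.10 and 0.91, adjusted P = 0.000143 and 0.000294), as did *Ufd1*, which encodes a cofactor of the VCP segregase (Log2FC 0.79 and 0.61, adjusted P = 0.000388 and 0.00113). *Ube2j1*, which encodes an ER-anchored conjugating enzyme, fell at both (Log2FC -1.04 and -0.82, adjusted P = 0.000454 and 0.00119). *Edem1*, which encodes a factor that directs glycoproteins to degradation, measured 174 and 160 CPM in Ctrl and 91.8 and 96.5 CPM in cKO sPre-B cells (Log2FC -0.83, adjusted P = 0.000238), and 134 and 129 CPM against 103 and 109 CPM at the early stage (Log2FC -0.32, adjusted P = 0.0231). The difference between these effects was not called (Log2FC -0.51, adjusted P = 0.0526). For this interaction DESeq2 and the likelihood-ratio test each called 1 gene of the list, more negative in sPre-B cells.

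**Figure D4:**
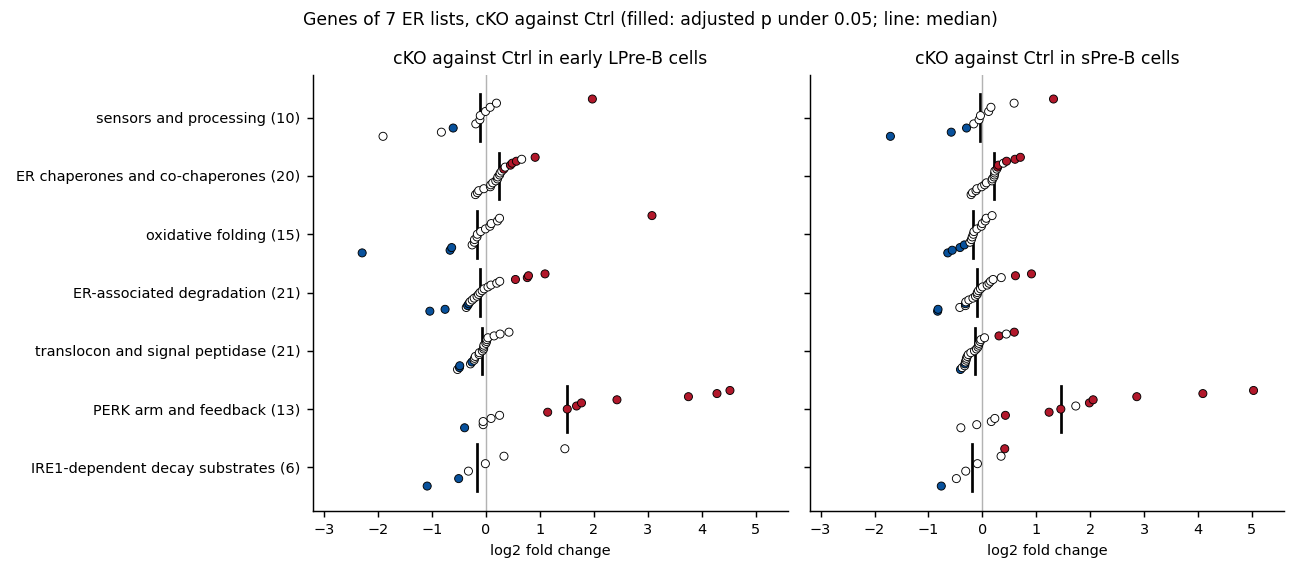
Log2 fold change in cKO against Ctrl for each tested gene (points) of the 7 ER lists, in early LPre-B cells (left) and sPre-B cells (right). Filled points had an adjusted P under 0.05 (red higher, blue lower), lines are list medians and numbers in parentheses count genes tested. The PERK arm list has a median of 1.51 and 1.45, and the medians of the other 6 lists lie between -0.20 and 0.24.

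Of 10 further sensors and processing enzymes, 1 rose and 1 fell in early LPre-B cells (against 14.5% and 16.9% of all genes), and 1 rose and 3 fell in sPre-B cells (against 19.8% and 14.9% of all genes). The genes that rose, named after their values were seen, had few counts: *Creb3l1* with 7 and 3 in Ctrl and 24 and 19 in cKO early LPre-B cells (Log2FC 1.98, adjusted P = 0.0345), and *Ern2* with 22 and 12 in Ctrl and 43 and 77 in cKO sPre-B cells (Log2FC 1.32, adjusted P = 0.0404). DESeq2 called 0 genes of this list higher in early LPre-B cells and 1 in sPre-B cells. *Creb3l2*, a transcription factor of the ATF6 kind held in the ER membrane, was lower in cKO at both stages (Log2FC -0.61 and -0.58, adjusted P = 0.0072 and 0.00695), whereas *Atf6b*, the paralog of *Atf6*, was not called at either (Log2FC -0.10 and -0.06). Of 6 tested genes known as substrates of IRE1-dependent decay, 0 rose and 2 fell in early LPre-B cells, and 1 rose and 1 fell in sPre-B cells, against the same shares over all genes. For the count of 0 higher, 1 gene passed an unadjusted P under 0.05 and 0 were called by DESeq2. *Gm2a*, a lysosomal lipid-binding protein, fell at both stages (Log2FC -1.09 and -0.76, adjusted P = 7e-05 and 0.000263), and *Bloc1s1*, the substrate most often used as a reporter of this decay, fell by 0.50 in early LPre-B cells (adjusted P = 0.0314) and had a Log2FC of -0.09 in sPre-B cells.

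Oxidative folding genes, 15 in number, included 1 that rose and 3 that fell in early LPre-B cells and 0 that rose and 4 that fell in sPre-B cells (0 higher at an unadjusted P under 0.05, 0 by DESeq2), where 16.9% and 14.9% of all genes were called lower and 14.5% and 19.8% higher. *Txndc11*, a thioredoxin-domain protein of the ER, fell at both stages (Log2FC -0.63 and -0.56, adjusted P = 0.00273 and 0.00418). Of 21 genes of the translocon, the signal recognition particle and signal peptidase, 0 rose and 3 fell in early LPre-B cells (1 higher at an unadjusted P under 0.05, 0 by DESeq2), and 2 rose and 2 fell in sPre-B cells, counts near or below the same shares over all genes.

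With stage, 14 of 21 degradation genes rose in Ctrl and 11 of 21 in cKO, and 2 fell in each, where 29.1% and 31.6% of all genes were called higher and 31.1% lower in both genotypes. Whether these shares differ from those of other genes was not tested, here or for the lists that follow. *Edem3*, a mannosidase, rose by 2.10 in Ctrl and 2.43 in cKO on the log2 scale (adjusted P = 1.05e-05 and 5.5e-06), and *Derl3*, a membrane channel component, by 1.92 and 1.28 (adjusted P = 2.26e-05 and 0.000193). The 2 that fell in both genotypes were *Vcp*, the segregase ATPase (Log2FC -0.71 and -0.51), and its cofactor *Nploc4* (Log2FC -0.44 and -0.49). Sensors and their processing enzymes rose in 5 of 10 in Ctrl and 4 of 10 in cKO, with 1 lower in each, and *Creb3l2* rose most (Log2FC 2.30 and 2.33, adjusted P = 2.41e-06 and 2.66e-06).

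Folding and translocation genes had more falls than rises in sPre-B cells, beside 31.1% of all genes called lower in each genotype. Of the 20 chaperones, 3 rose and 10 fell in Ctrl and 2 rose and 11 fell in cKO. *Canx*, the lectin chaperone calnexin, was at 0.482 of its early level in Ctrl and 0.435 in cKO (adjusted P = 7.45e-05 and 3.65e-05). Of the 15 oxidative folding genes, 4 rose and 8 fell in Ctrl and 2 rose and 10 fell in cKO. *P4hb*, the founding protein disulfide isomerase, had a Log2FC of -1.02 in Ctrl and -1.24 in cKO, and *Ero1b*, the oxidase that recharges these isomerases, ran the other way (Log2FC 1.81 and 2.04, adjusted P = 6.96e-06 and 4.4e-06). Of the 21 translocon genes, 5 rose and 12 fell in Ctrl and 4 rose and 14 fell in cKO, with *Ssr1*, a subunit of the translocon-associated complex, lower (Log2FC -1.29 and -1.03) and *Sec63*, the partner of HSPA5 at the channel, higher (Log2FC 1.08 and 0.82).

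**Figure D5:**
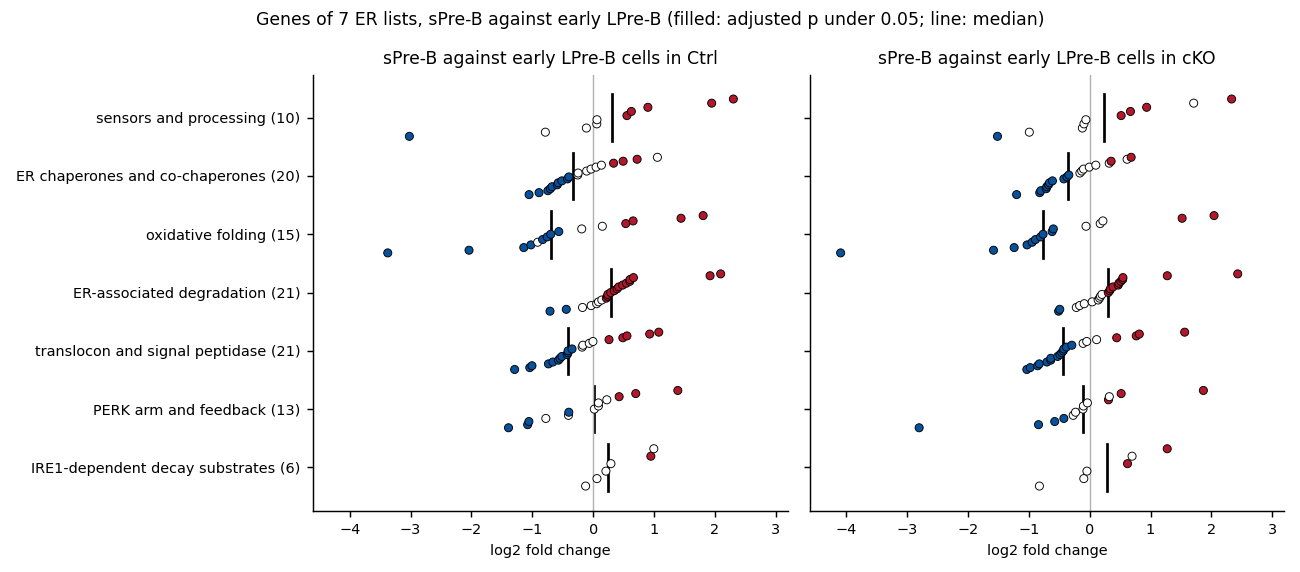
Log2 fold change in sPre-B against early LPre-B cells for each tested gene (points) of the 7 ER lists, in Ctrl (left) and cKO (right). Filled points had an adjusted P under 0.05 (red higher, blue lower) and lines are list medians. Medians of the degradation and sensor lists lie above 0, and those of the chaperone, oxidative folding and translocon lists lie below 0, in both genotypes.

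Other cell types and gene overlaps were set beside these values. Plasma cell markers summed to 1110 to 1115 CPM in Ctrl and 666 to 709 CPM in cKO early LPre-B cells, and to 1634 to 1748 CPM and 1052 to 1200 CPM in sPre-B cells. The sum was higher in sPre-B cells within each genotype and lower in cKO within each stage. *Irf4* (395 to 1026 CPM), which pre-B cells also express, was its largest part in every library, and the other high members were *Slamf7* (178 to 364 CPM), *Iglc1* (0.0643 to 316 CPM) and *Sdc1* (30.2 to 90.6 CPM). *Ighg2b* ran against the sum between genotypes, with 4.54 and 2.74 CPM in Ctrl and 46.5 and 24.6 CPM in cKO early LPre-B cells, and 1.96 and 2.60 CPM against 204 and 108 CPM in sPre-B cells, so in cKO it was higher in sPre-B cells as the sum was. *Ighg2c* did likewise at a lower level, with at most 0.166 CPM in Ctrl and 0.80 to 8.23 CPM in cKO libraries. *Prdm1* reached 15.7 CPM, *Igha* 14.4 CPM, *Jchain* 2.32 CPM and *Tnfrsf17* 0.369 CPM, each at its highest. Both Ctrl replicate 1 libraries stood apart in 2 of these genes. *Igha* measured 10.7 CPM in early LPre-B replicate 1 and 14.4 CPM in sPre-B replicate 1 of Ctrl, and at most 0.650 CPM in the other 6 libraries. *Jchain* measured 2.24 and 2.32 CPM there and at most 0.440 CPM in the others. In the early stage the same Ctrl library was above its replicate in every member except *Ern1* and *Atf6*, as given above. In the sPre-B stage Ctrl replicate 1 was above in every member except *Ern1* and *Xbp1*. Without Ctrl early LPre-B replicate 1, the Log2FC in cKO against Ctrl early LPre-B cells was 0.64 for *Hspa5*, 0.92 for *Sdf2l1* and 0.40 for *Pdia4*, all called (adjusted P = 0.00831, 0.0272 and 0.028), and 0.25 for *Xbp1*, not called (adjusted P = 0.141). Myeloid markers, mostly *Itgam*, summed to 111 to 135 CPM and 50.6 to 55.9 CPM at the early stage and to 305 to 357 CPM and 211 to 243 CPM in sPre-B cells, also higher in sPre-B cells and lower in cKO. The part of either list in the members' values was not tested. Strand was not used in counting. The annotation (GENCODE M21, mm10) places *Gm43292* on the opposite strand within *Eif2ak3*, *1810014B01Rik* over one end of *Hsp90b1* and the antisense gene *Gm15890* over one end of *Herpud1*. Where reads of these genes fall on exons of the members, they cannot be told apart from the members' own. Whether they cover such exons was not examined. *Ern1*, *Xbp1*, *Hspa5* and *Sdf2l1* overlapped 0 annotated genes.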

How the data were processed

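Total RNA of the sorted cells was depleted of ribosomal RNA and sequenced. The authors used Trim Galore for trimming, HISAT2 for unstranded paired-end alignment to mm10 and featureCounts for counting, and deposited the raw counts per gene by Entrez identifier. RefSeq named 25275 of the 27179 identifiers.

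The counts were fitted with edgeR 4.0.16 under R 4.3.3 (TMM factors, filterByExpr by group, 1 mean per group over 8 libraries, two-sided quasi-likelihood F test, Benjamini-Hochberg adjustment). The common biological coefficient of variation was 0.174. CPM were counts scaled to the TMM-adjusted library size, and log2 CPM for correlations used a prior count of 2. Alternatives were DESeq2 1.42.0, edgeR's likelihood-ratio test, median-ratio factors, no filter, leaving out immunoglobulin genes, only the 4 libraries compared, blocks for the replicate number and leaving out each library. A lone library left in a group was assumed to vary like the others.

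The members and lists were chosen with earlier results of these data known. Besides the members, the text names genes among the 3 largest called changes in each direction of each list and comparison whose higher group had 50 counts or more in both libraries, unless stated otherwise. Counts were simulated for cKO against Ctrl in early LPre-B cells (17700 genes), with 68, 70 and 62 genes changed by a Log2FC of 2, 1 and 0.5. Of these, 98.5%, 78.6% and 11.3% were recovered, and 12 of 17500 unchanged genes were called. In the data far more genes were called (14.5% higher and 16.9% lower), which makes the adjusted threshold less strict than in the simulation. The recovery rates therefore do not give the share of changes found in the data.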

Additional observations from a re-analysis of the deposited data

Results flagged for a closer look

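*Atf6* was the member whose libraries lay on opposite sides of Ctrl at the 2 stages without overlap. Its Log2FC in cKO against Ctrl was 0.25 in early LPre-B and -0.23 in sPre-B cells, and the interaction of -0.4849 had a P of 0.00342 and an adjusted P of 0.062 in edgeR's quasi-likelihood test over 17700 genes. Among the 105 further ER genes tested, *Pdia6*, a protein disulfide isomerase gene, had the same pattern (Log2FC 0.25 and -0.16, interaction -0.4093, adjusted P = 0.168). *Pdia6* was chosen after its values were seen. Their cause was not tested.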

How the results depend on the processing

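With 2 libraries per group, small changes can be missed, and leaving out 1 library moved several counts. Members called ranged from 1 to 6 in cKO against Ctrl early LPre-B cells (5 with all libraries), with 1 called without either cKO early LPre-B library and 3 without Ctrl early LPre-B replicate 2 or without either cKO sPre-B library, and from 1 to 3 in sPre-B cells (1 with all libraries), with 3 called without either Ctrl early LPre-B library. With stage they were 8 in every such fit in Ctrl and 6 to 8 in cKO, and 0 in every such fit for the interaction. Of the further ER genes, 18 to 33 (33 with all libraries, 18 without cKO early LPre-B replicate 1) and 19 to 37 (32 with all libraries, 20 and 19 without cKO sPre-B replicates 1 and 2) were called between genotypes, 59 to 72 and 58 to 70 with stage, and 0 to 2 for the interaction.

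The members called in cKO against Ctrl sPre-B cells were 2 with median-ratio factors, 2 without the filter, 4 by DESeq2, 2 by the likelihood-ratio test and 2 with the replicate block. For the interaction they were 1 with median-ratio factors, 1 by DESeq2, 1 by the likelihood-ratio test and 2 with the replicate block within genotype. The further ER genes called for the interaction were 1 with median-ratio factors, 6 without the filter, 5 by DESeq2, 5 by the likelihood-ratio test, 3 with the replicate block and 6 with the replicate block within genotype. The labels do not say that equal replicate numbers pair the libraries, and the correlation of their deviations from the group means was between 0.0514 and 0.395 over the 6 pairs of groups. The block changed no other count by more than 1.5 times.

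Among members, 13 fits reversed a difference that was not called. The interaction of *Dnajb9* was 0.02 with all libraries, -0.0232 with median-ratio factors and -0.0254 by DESeq2, and between -0.164 and 0.0729 in fits that left out 1 library, 5 of them below 0. That of *Sdf2l1* (-0.09) lay between -0.397 and 0.115 in such fits, above 0 without Ctrl early LPre-B replicate 2 or cKO sPre-B replicate 2. *Xbp1* in cKO against Ctrl early LPre-B cells lay between -0.0861 and 0.252 (below 0 without cKO replicate 1 or Ctrl replicate 2 of that stage), *Herpud1* in sPre-B cells between -0.0156 and 0.214 (below 0 without cKO sPre-B replicate 2), and *Hspa5* with stage in Ctrl between -0.278 and 0.0735 (above 0 without Ctrl early LPre-B replicate 1). The causes were not tested. The other 703 fits kept direction and side of the threshold, 25 gained a call and 29 lost one.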
